A study of Mus musculus with 18 samples.

Results

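The Mediator kinase module and its paralogs comprise 7 mouse genes: Cdk8, Cdk19, Ccnc, Med12, Med12l, Med13 and Med13l. They were listed by name as the subunits of this module and make up 7 of the 50686 genes counted. RNA-seq covered E0771 cells, a mouse triple-negative breast cancer cell line, with a retroviral hairpin against Renilla luciferase (the non-targeting control) or against Cdk8 (the lines labelled CDK8.1593 and CDK8.1830). Treatment of the 3 lines lasted 48 h, with either the solvent DMSO or Senexin B (SnxB, 1 µM), an inhibitor of the kinase activity of CDK8 and CDK19. There were 3 libraries for each of the 6 groups and 18 in all, with 16452260 to 22664693 counts per library. Per the study's methods, all cells also carried a lentiviral firefly luciferase selected with puromycin, and hairpin cells were sorted on mCherry. Each hairpin is represented by 1 transduced line, so an effect of the hairpin and a difference between lines cannot be told apart.

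Mediator is the complex that bridges transcription factors at enhancers and RNA polymerase II at promoters. Its kinase module docks reversibly on the core complex. Cyclin C, encoded by Ccnc, activates the kinase CDK8 or its paralog CDK19, MED12 or MED12L stimulates the kinase, and MED13 or MED13L tethers the module to core Mediator. CDK8 and CDK19 are used in alternative modules, as are the paralogs of the other pairs, whereas cyclin C has no paralog in the module.

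Both Cdk8 hairpins given in the study's methods target the 3′ untranslated region in the last of the 13 exons of the Cdk8 mRNA, which is 2973 bases long with its stop codon ending at base 1800. The sites are shown because the drop in Cdk8 mRNA is the change the lines were made for. The first site starts 179 bases and the second 416 bases after the end of the coding sequence. They were read from the GENCODE M21 transcripts (GRCm38) on the plus strand, 5′ to 3′, and the capitals mark the 7 bases paired by the guide's seed (guide bases 2 to 8).
First site (chr5:146301880-146301901): ttggagttagacttGAAATGAa
Second site (chr5:146302117-146302138): cacagattatgttaACAAAATa
The sites start 237 bases apart, which is also the difference between the numbers in the names CDK8.1593 and CDK8.1830 and would place the lower number at the first site. The labels also call these lines shCDK8-1 and shCDK8-2, and the hairpin that the methods name first matches the second site. Which site belongs to which line was therefore left unassigned. Outside Cdk8, the closest stretch of 22 bases in the longest coding mRNAs of the other 6 genes had 7 or 8 mismatches with the first site and 5 to 8 with the second. The fewest, 5, lay in Med13. The 7 capital letters of the first site occurred 2 times in Cdk8 itself, once in Cdk19, Ccnc and Med12l and in none of Med12, Med13 and Med13l, and 29.3% of 11417 mRNAs of tested genes held them. Those of the second site occurred 1 time in Cdk8, 3 times in each of Ccnc, Med12l and Med13 and in none of Cdk19, Med12 and Med13l, against 26.1% of the same mRNAs. These shares count mRNAs of any length with at least 1 match, so they are not matched to the lengths of the module's mRNAs. No such share was taken for the mismatches. A run of letters does not show that a guide acted on it.

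The labelled cell type was checked against marker genes. Of 5 epithelial markers (Krt8, Krt18, Krt7, Epcam and Cdh1), 0 exceeded 1 CPM (the reads of a gene relative to the TMM-scaled size of its library) in control cells in DMSO, where their summed level was 0.325 to 0.441 CPM, and Krt18 had at most 1 count in any library. The summed level was 8.22 to 9.18 CPM in CDK8.1593 and 12.5 to 14.6 CPM in CDK8.1830 cells in DMSO, most of it from Krt8 (means of 7.51 and 13 CPM). Among 5 fibroblast markers, Pdgfra and Pdgfrb were high in all groups, and the summed level was 547 to 556 CPM in the control, 395 to 446 CPM in CDK8.1593 and 417 to 447 CPM in CDK8.1830 cells in DMSO. Col1a1 was instead higher in the knockdown lines, with means of 0.78, 16.6 and 9.91 CPM, and so was Col1a2, with 0.0344, 0.517 and 0.373 CPM, whereas Thy1 had at most 1 count in any library. The 3 endothelial markers summed to 4.95 to 5.61, 13.6 to 15.2 and 6.41 to 6.83 CPM in the same order. Within this sum, Pecam1 was higher in the knockdown lines (means of 0.286, 14.3 and 5.85 CPM), and Cdh5 (4.34, 0.206 and 0.595 CPM) and Kdr (0.606, 0.0534 and 0.112 CPM) were lower. The 4 leukocyte markers stayed at or below 0.547 CPM in sum. The estrogen receptor gene Esr1 had a mean of 23.1 CPM in control cells in DMSO and 1.25 and 0.951 CPM in the knockdown lines, Pgr had 0 counts in all libraries, and the mean of Erbb2 was 47.3 to 55.8 CPM. The part of these differences in the results below was not tested. In bulk RNA, fewer cells with a transcript and less of it per cell cannot be told apart.

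**Figure D1:**
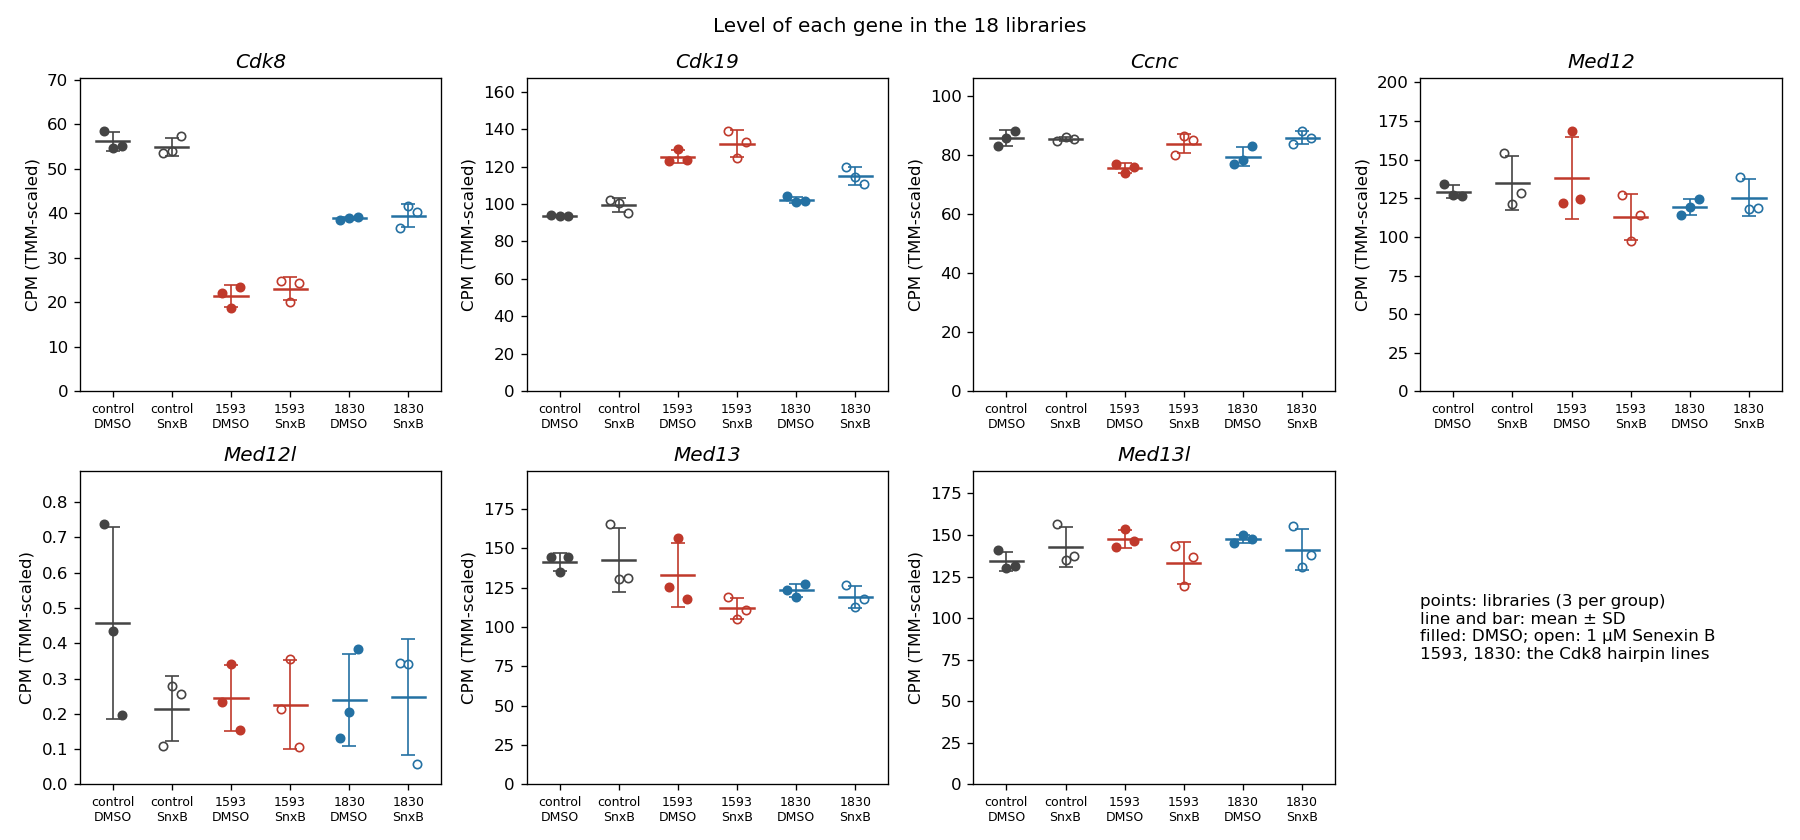
Level of the 7 module genes in each library (points; y axes: TMM-scaled CPM from 0) for the 3 lines in DMSO (filled) and SnxB (open), with the mean and SD of 3 libraries. Cdk8 falls into 3 steps by line, Cdk19 is higher in both knockdown lines, and Med12l stays below 0.74 CPM.

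Cdk8, the kinase targeted by the hairpins, was lower in both knockdown lines and lowest in CDK8.1593. In DMSO it measured 58.6, 54.8 and 55.1 CPM in the 3 control libraries. The CDK8.1593 libraries held 22.2, 18.7 and 23.4 CPM, and the CDK8.1830 libraries 38.5, 38.9 and 39.2 CPM. No library of a knockdown line reached the level of a control library, and the lines did not overlap each other. In SnxB the levels were 53.6, 54.0 and 57.3 CPM in the control, 24.8, 20.2 and 24.4 CPM in CDK8.1593 and 36.6, 41.6 and 40.3 CPM in CDK8.1830. The same 3 steps were seen in these separate libraries. On counts, a CDK8.1593 library held 328 to 472 Cdk8 reads, so the remaining transcript was measured well above the level of 3 counts (0.132 to 0.182 CPM).

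Against the control in DMSO, the log2 fold change of Cdk8 was -1.38 (SE 0.0748, adjusted p = 2.58e-12) in CDK8.1593 and -0.53 (SE 0.0699, adjusted p = 1.92e-06) in CDK8.1830, by edgeR's quasi-likelihood test with Benjamini-Hochberg adjustment over 12772 genes. Cdk8 mRNA fell by 61.7% in the first line and by 30.7% in the second. In SnxB the values were -1.25 (SE 0.0745, adjusted p = 1.24e-11) and -0.48 (SE 0.0702, adjusted p = 7.33e-06). Between the lines, Cdk8 was higher in CDK8.1830 than in CDK8.1593 by 0.86 on the log2 scale in DMSO (SE 0.0763, adjusted p = 9.77e-08) and by 0.77 in SnxB (SE 0.0768, adjusted p = 4.59e-07).

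Cdk19, the paralog kinase, was higher where Cdk8 was lower. In DMSO its level was 93.9, 93.6 and 93.5 CPM in the control, 123, 129 and 123 CPM in CDK8.1593 and 104, 101 and 102 CPM in CDK8.1830. The 3 lines did not overlap, with CDK8.1593 highest. In SnxB the libraries held 102, 101 and 95.1 CPM in the control, 139, 125 and 133 CPM in CDK8.1593 and 120, 114 and 111 CPM in CDK8.1830, again in the same order without overlap. The rise over the control was 33.6% in CDK8.1593 in DMSO (log2 fold change 0.42, SE 0.0427, adjusted p = 4.49e-08) and 33.1% in SnxB (0.41, SE 0.0424, adjusted p = 4.94e-08). In CDK8.1830 the log2 fold change was 0.13 in DMSO (SE 0.043, adjusted p = 0.0161) and 0.21 in SnxB (SE 0.0426, adjusted p = 0.000251). The call in DMSO was lost without replicate 1 or 2 of the control (adjusted p = 0.0516 and 0.0535) or without replicate 1 of CDK8.1830 (adjusted p = 0.0826). Cdk19 was lower in CDK8.1830 than in CDK8.1593 by a log2 difference of -0.29 in DMSO (SE 0.0423, adjusted p = 4.38e-05) and of -0.20 in SnxB (SE 0.0422, adjusted p = 0.00172).

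**Figure D2:**
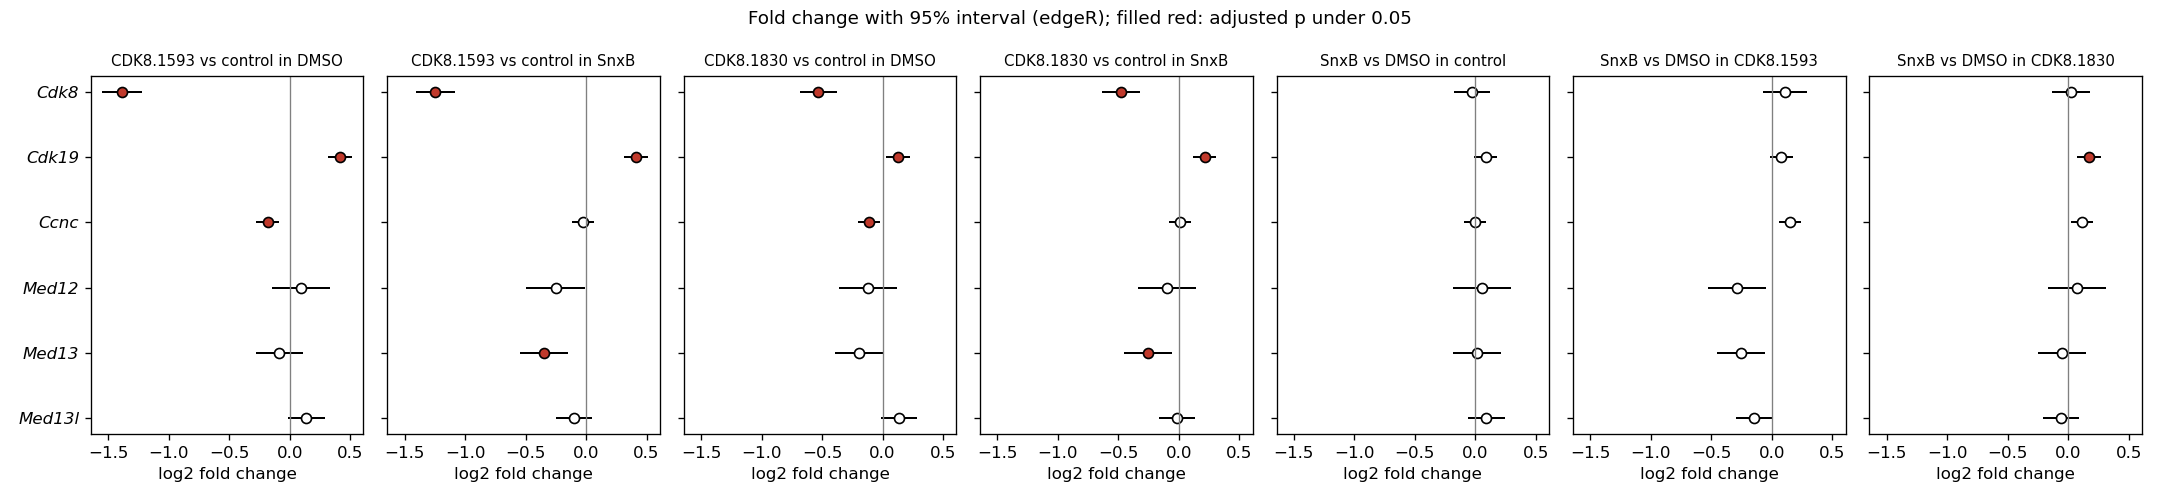
Log2 fold change (points) with its 95% interval (lines) of the 6 tested module genes in 7 comparisons, red where the adjusted p was under 0.05. Cdk8 and Cdk19 pass in opposite directions in each of the 4 comparisons of a knockdown line with the control, and 1 of 18 values for SnxB against DMSO passes.

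The levels of both kinases can be compared with each other only per length, and here the order of Cdk8 and Cdk19 in control cells depended on the length used. The deposited length is the union of all annotated exons, 9832 bases for Cdk8 and 5846 for Cdk19, whereas their longest coding mRNAs are 2973 and 5807 bases. Per kilobase of all exons, Cdk8 was 5.71 ± 0.216 (SD, n = 3) and Cdk19 16.0 ± 0.0406 CPM per kb in control cells in DMSO, and Cdk8 made up 26.3% ± 0.684 of their sum. Per kilobase of the mRNA, the values were 18.9 and 16.1 CPM per kb, and the share of Cdk8 was 53.9% ± 0.873.

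The share of Cdk8 was lower in both knockdown lines on either scale. Over all exons it was 9.24% ± 1.17 in CDK8.1593 and 18.4% ± 0.371 in CDK8.1830 cells in DMSO, and 24.8% ± 1.40, 9.40% ± 0.554 and 17.0% ± 1.40 in SnxB for the control, CDK8.1593 and CDK8.1830 (SD, n = 3 each). Over the mRNA it was 25.0% ± 2.65 in CDK8.1593 and 42.6% ± 0.605 in CDK8.1830 in DMSO. On this scale the sum of both kinases was 35.0 ± 0.753 CPM per kb in the control, 28.8 ± 0.315 in CDK8.1593 and 30.7 ± 0.211 in CDK8.1830 cells in DMSO, and the libraries of the knockdown lines lay below those of the control. In SnxB the sum was 35.6 ± 0.0909, 30.5 ± 2.09 and 33.1 ± 0.554 CPM per kb. Over all exons the order changed, with sums in DMSO of 21.7 ± 0.254, 23.6 ± 0.378 and 21.4 ± 0.262 CPM per kb for the control, CDK8.1593 and CDK8.1830. Whether total kinase mRNA was lower in the knockdown lines therefore cannot be stated without the transcript forms in use, which were not measured.

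**Figure D3:**
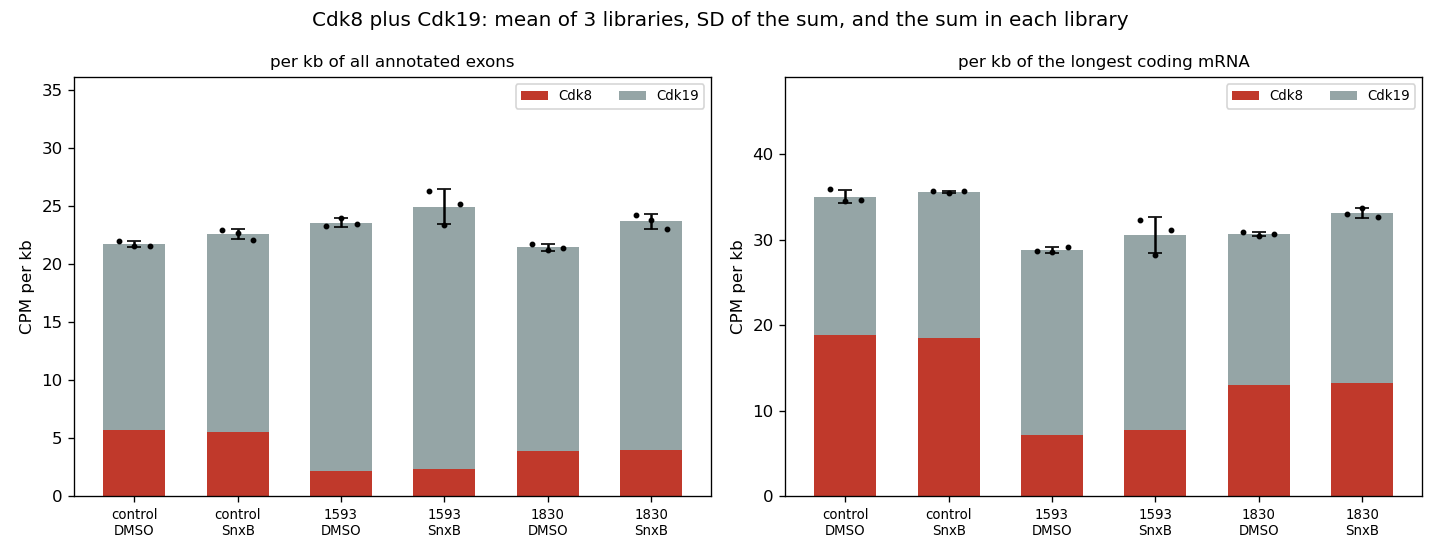
Cdk8 (red) and Cdk19 (grey) in CPM per kb, stacked, as means of 3 libraries per group, with the sum in each library (points) and its SD. Left, per kb of all annotated exons, the sum in DMSO is highest in CDK8.1593 (23.6); right, per kb of the longest coding mRNA, it is highest in the control (35.0).

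Ccnc, the cyclin of the module, differed little. In DMSO it measured 83.0, 85.9 and 88.3 CPM in the control, 77.0, 73.8 and 75.8 CPM in CDK8.1593 and 76.8, 78.4 and 83.0 CPM in CDK8.1830. All libraries of both knockdown lines lay below the control libraries, but the highest CDK8.1830 library only just below the lowest control library. The log2 fold change was -0.18 in CDK8.1593 (SE 0.0403, adjusted p = 0.000566) and -0.11 in CDK8.1830 (SE 0.0401, adjusted p = 0.0215). The latter call was lost with library totals in place of TMM scaling (adjusted p = 0.122), without a filter on low counts (0.141), without replicate 3 of the control (0.103), and without replicate 1 or 2 of CDK8.1830 (0.0841 and 0.053). In SnxB the 3 lines overlapped, with 84.6 to 86.2 CPM in the control, 80.1 to 86.3 CPM in CDK8.1593 and 83.8 to 88.2 CPM in CDK8.1830. There the log2 fold change against the control was -0.03 (95% interval -0.11 to 0.06) and 0.01 (-0.08 to 0.09). The difference between the changes in SnxB and in DMSO, tested as an interaction, did not pass for either line (0.15, adjusted p = 0.386, and 0.12, adjusted p = 0.841).

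Med12, which activates the kinase, was not called in any comparison. In DMSO it measured 134, 127 and 127 CPM in the control, 122, 169 and 124 CPM in CDK8.1593 and 114, 119 and 125 CPM in CDK8.1830. Replicate 2 of CDK8.1593 stood above all other libraries while the rest of its group lay below the control, and the CDK8.1830 libraries lay below those of the control. The 95% interval of the log2 fold change against the control was -0.14 to 0.33 in CDK8.1593 and -0.35 to 0.12 in CDK8.1830. In SnxB the level was 154, 121 and 129 CPM in the control, 127, 97.2 and 114 CPM in CDK8.1593 and 139, 118 and 119 CPM in CDK8.1830, with overlap between the lines. The log2 fold change against the control was -0.25 in CDK8.1593 (adjusted p = 0.0574) and -0.10 in CDK8.1830 (adjusted p = 0.46), and the former passed without replicate 2 of the control (-0.33, adjusted p = 0.0272) or replicate 1 of CDK8.1593 (-0.34, adjusted p = 0.02). Of the annotated exon bases of Med12, 9.72% overlap Gm21986 on the same strand, and reads from these bases were left uncounted.

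Med12l, the paralog of Med12, was close to the detection limit. The libraries held 1 to 12 reads of it, 4 to 12 in control cells in DMSO and 1 to 7 in the other groups. The group means were 0.215 to 0.456 CPM, all groups overlapped, and the gene was removed by the filter on low counts, so that 6 of the 7 genes were tested. Per kilobase of all exons, Med12 made up 99.8% to 99.9% of the sum of both genes in each group.

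Med13, which links the module to core Mediator, was called lower in both knockdown lines in SnxB. There it measured 166, 131 and 131 CPM in the control, 119, 105 and 111 CPM in CDK8.1593 and 127, 113 and 118 CPM in CDK8.1830. Replicate 1 of the control stood well above its group, but the other control libraries were also higher than each knockdown library. The log2 fold change was -0.35 in CDK8.1593 (SE 0.0907, adjusted p = 0.0024) and -0.26 in CDK8.1830 (SE 0.0903, adjusted p = 0.0198). The latter was lost without replicate 1 of the control (-0.14, adjusted p = 0.16), without replicate 2 of CDK8.1830 (-0.21, adjusted p = 0.0895) and without replicate 3 of CDK8.1830 (-0.24, adjusted p = 0.0576). In DMSO the level was 145, 135 and 144 CPM in the control, 126, 156 and 118 CPM in CDK8.1593 and 124, 119 and 127 CPM in CDK8.1830. Here CDK8.1593 overlapped the control because of its replicate 2, and CDK8.1830 did not. The log2 fold change in DMSO was -0.09 in CDK8.1593 (adjusted p = 0.435) and -0.20 in CDK8.1830 (adjusted p = 0.0706). Without replicate 2 of CDK8.1593 the former was -0.22 (adjusted p = 0.0251).

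Med13l, the paralog of Med13, was not called in any comparison. In DMSO it measured 141, 130 and 131 CPM in the control, 143, 154 and 146 CPM in CDK8.1593 and 145, 150 and 147 CPM in CDK8.1830. Each knockdown library lay above the control libraries. The log2 fold changes, 0.14 in both lines, had adjusted p of 0.0877 and 0.0915, and passed in both lines under 4 alternatives. The adjusted p was 0.0314 and 0.0222 with library totals in place of TMM scaling, 0.0168 and 0.0188 without a filter on low counts, 0.0184 and 0.0029 with only the groups compared, and 0.0316 and 0.0387 with the 12 libraries of the lines in DMSO and the control in SnxB. In SnxB the groups overlapped at 135 to 157 CPM in the control, 119 to 143 CPM in CDK8.1593 and 131 to 155 CPM in CDK8.1830. The log2 fold change there was -0.10 in CDK8.1593 (adjusted p = 0.206) and -0.02 in CDK8.1830 (adjusted p = 0.865). Per kilobase of all exons, Med13 made up 60.0% ± 0.868 of the sum of Med13 and Med13l in the control, 56.0% ± 2.91 in CDK8.1593 and 54.3% ± 1.10 in CDK8.1830 cells in DMSO (SD, n = 3). The corresponding shares in SnxB were 58.6% ± 1.31, 54.5% ± 1.06 and 54.6% ± 0.703. Per kilobase of the mRNA, the order of the 2 genes turned, with Med13 at 48.1% ± 0.905, 44.1% ± 2.92 and 42.4% ± 1.08 in DMSO.

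The spread of the MED12 and MED13 genes between libraries of a group moved with that of other long mRNAs. In each library, the median deviation from the group mean was taken over the 1462 tested genes whose mean reached 1 CPM and whose coding mRNA had 6000 bases or more, which include Med12, Med13 and Med13l. Med12 deviated to the same side as this median in 17 of 18 libraries, Med13l in 16, Med13 and Cdk19 in 14, Cdk8 in 9 and Ccnc in 4. The highest Med12 and Med13 library of each of the 6 groups was the library with the highest median of long mRNAs. This median reached 0.11 (log2) in replicate 1 of the control in SnxB, 0.09 in replicate 2 of CDK8.1593 in DMSO and 0.09 in replicate 1 of CDK8.1593 in SnxB, where Med13 deviated by 0.23, 0.24 and 0.09. Between groups, the median log2 fold change of the long mRNAs was -0.13 for CDK8.1593 and -0.10 for CDK8.1830 against the control in SnxB, and 45.8% and 40.8% of them were called lower. The part of this shift in the Med13 calls was not tested.

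**Figure D4:**
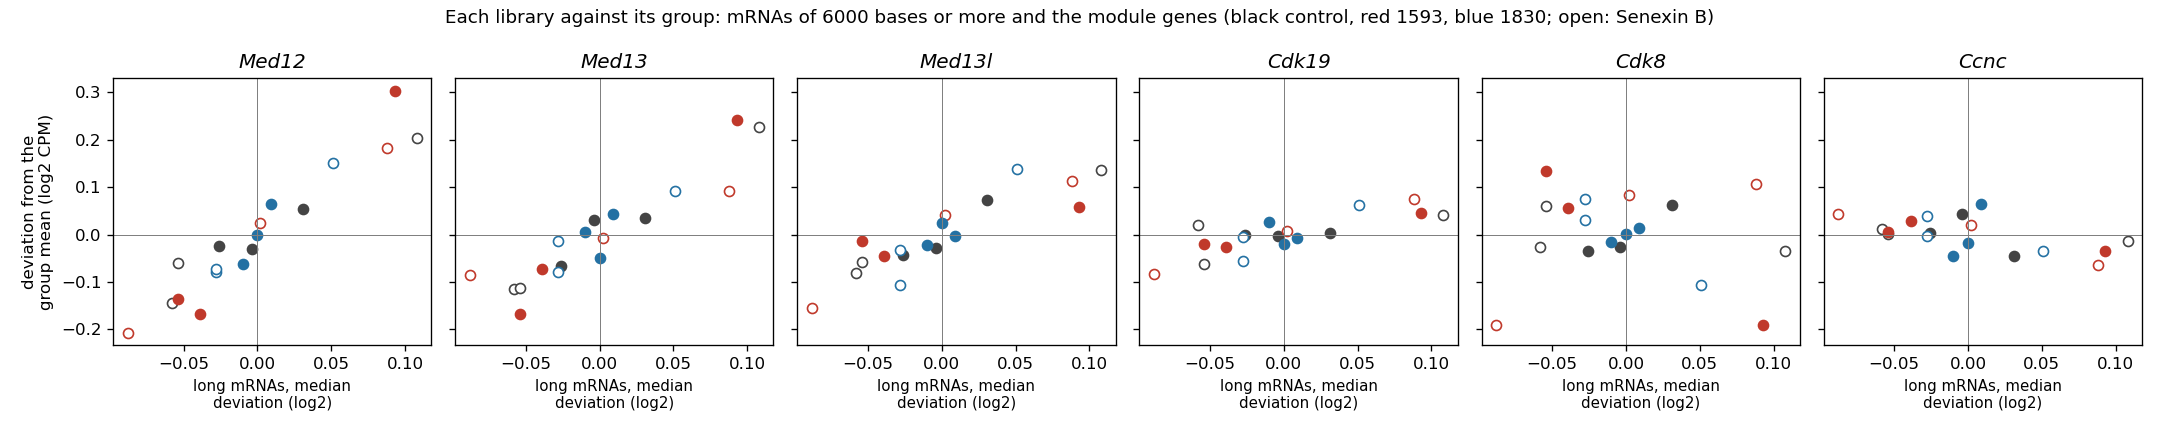
Deviation of each library from its group mean (log2 CPM) for 6 module genes (y axis) against the median deviation of 1462 long mRNAs (x axis), by line (black control, red CDK8.1593, blue CDK8.1830; filled DMSO, open SnxB). Med12 lies on the same side of 0 as the long mRNAs in 17 of 18 libraries and Ccnc in 4.

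As a set, 3 of the 6 tested module genes were called at an adjusted p under 0.05 in CDK8.1593 against the control in DMSO (Cdk8 and Ccnc lower, Cdk19 higher), where 59.6% of all tested genes were called. The same 3 genes were called in CDK8.1830 in DMSO, against 57.1% of all genes. In SnxB, Cdk8 and Med13 were lower and Cdk19 higher in both lines, against 60.6% of all genes called in CDK8.1593 and 56.7% in CDK8.1830. With a fold change above 2 also required, Cdk8 alone was called in CDK8.1593 in DMSO (12.5% of all genes) and 0 genes of the module in CDK8.1830 (11% of all genes). With 3 of 6 genes called in each comparison with the control, close to the share of all genes, the counts say little about the module as a set. How many of all genes have libraries without overlap between these groups was not counted. The separations given above for single genes therefore have no such share beside them. The median log2 fold change of the 6 genes was 0.00 in CDK8.1593 and -0.11 in CDK8.1830 in DMSO, and -0.18 and -0.06 in SnxB, beside 0.01 for all genes in each. The comparisons with the control in one medium share their 3 control libraries, and those in DMSO and in SnxB do not. Between CDK8.1830 and CDK8.1593, Cdk8 and Cdk19 were called in DMSO (21.1% of all genes) and in SnxB (20.9%).

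SnxB, given for 48 h, had little effect on the transcripts of the kinases it inhibits. In control cells, 0 of 6 module genes were called against DMSO by edgeR (5.54% of all genes, and 0.305% with a fold change above 2 as well), 0 had an unadjusted p under 0.05, and DESeq2 also called 0. The log2 fold change of Cdk8 was -0.03 (95% interval -0.17 to 0.11) and that of Cdk19 0.08 (-0.01 to 0.17). The intervals of the other genes lay within -0.09 to 0.08 for Ccnc, -0.17 to 0.29 for Med12, -0.17 to 0.20 for Med13 and -0.05 to 0.23 for Med13l, so that a change of 2-fold lay outside each of them.

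In CDK8.1593 cells, 0 module genes were called after SnxB by edgeR or by DESeq2 (1.48% of all genes by edgeR). At an unadjusted p under 0.05 there were 4, and the share of all genes at that threshold was not counted. Ccnc had a log2 fold change of 0.15 (adjusted p = 0.0729), Med12 of -0.29 (0.24), Med13 of -0.25 (0.207) and Med13l of -0.15 (0.323). Without replicate 1 of CDK8.1593 in SnxB, Ccnc passed (0.18, adjusted p = 0.0212). In CDK8.1830 cells, Cdk19 rose by 0.17 on the log2 scale (SE 0.0425, adjusted p = 0.0407, with 2.05% of all genes called), from 101 to 104 CPM in DMSO to 111 to 120 CPM in SnxB. This call was lost without any 1 of 5 of the 6 libraries (adjusted p from 0.0783 to 0.18). The interaction of SnxB with the line was called for 0 of 6 genes by edgeR and by DESeq2. Of all genes, edgeR called 0.305% for CDK8.1593 and 0.0548% for CDK8.1830. An unadjusted p under 0.05 was seen for 3 module genes with CDK8.1593 and 1 with CDK8.1830, again without a share of all genes. The change of Cdk19 after SnxB in CDK8.1830 was thus not shown to differ from that in the control (difference 0.09, 95% interval -0.04 to 0.21).

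**Figure D5:**
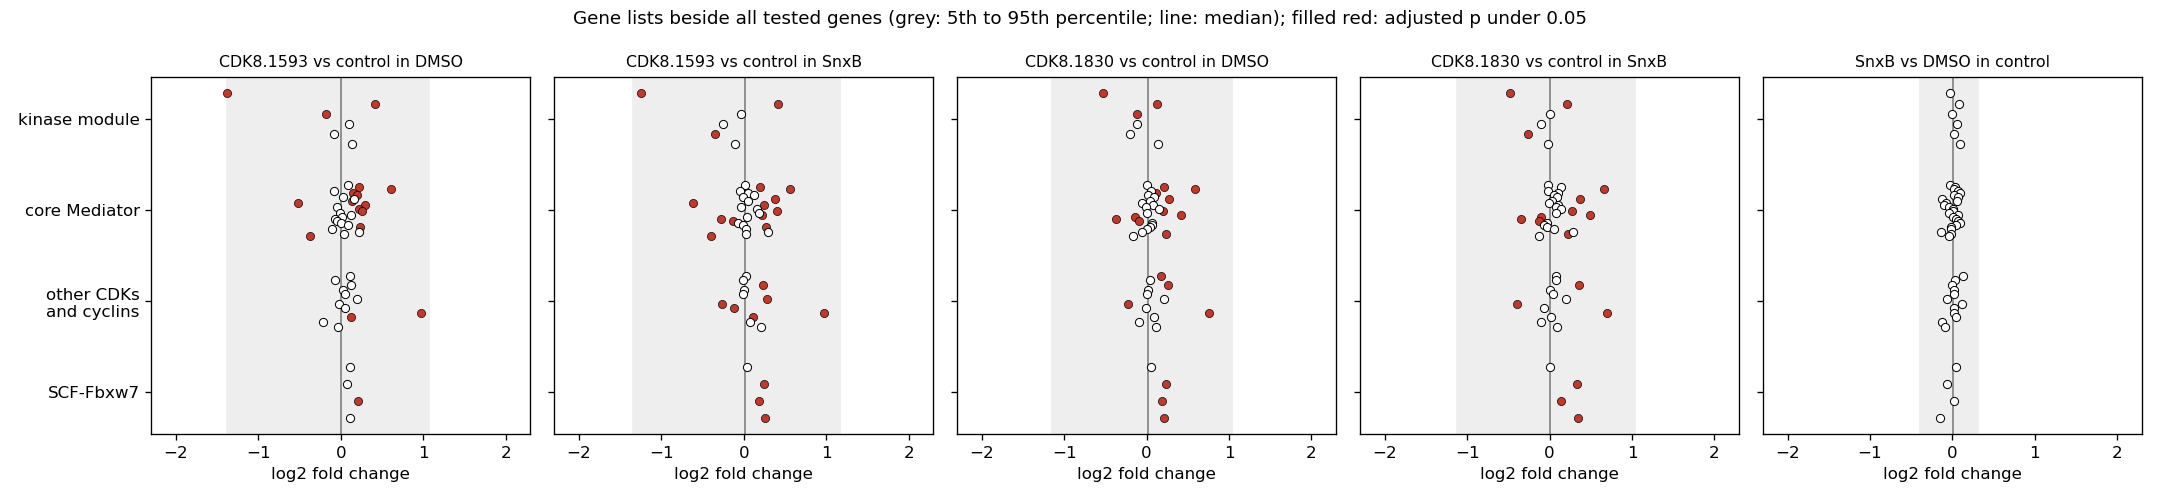
Log2 fold change of the 6 tested module genes and of 3 gene lists in 5 comparisons, red where the adjusted p was under 0.05, with the 5th to 95th percentile (grey) and median (line) of all tested genes. Cdk8 is the lowest point of the CDK8.1593 panels (-1.38 and -1.25), Ccnk the highest, and 0 genes of the lists are called for SnxB in the control.

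Core Mediator, to which the module docks, was represented by 26 genes, all tested. In DMSO, 9 rose and 2 fell in CDK8.1593 against the control, or 34.6% and 7.69%, beside 30.1% of all genes higher and 29.5% lower. In CDK8.1830, 7 rose and 3 fell, or 26.9% and 11.5%, beside 29% and 28.1% of all genes. In SnxB, 7 rose and 4 fell in CDK8.1593 (all genes 30.5% and 30.1%), and 5 rose and 3 fell in CDK8.1830 (28.1% and 28.6%). Their median log2 fold change was 0.09, 0.05, 0.05 and 0.07 in this order, beside 0.01 for all genes in each. For CDK8.1830 in DMSO, 5 genes in place of 10 were called without replicate 1 of the control or replicate 1 of CDK8.1830.

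Med6, a head subunit, had the largest rise in all 4 comparisons, from 14.96 to 22.95 CPM in CDK8.1593 in DMSO (log2 fold change 0.61, adjusted p = 1.23e-05) and to 22.6 CPM in CDK8.1830 (0.59, adjusted p = 2.03e-05). In SnxB its log2 fold change was 0.56 (adjusted p = 3.4e-05) and 0.65 (adjusted p = 5.43e-06). Med15, a tail subunit contacted by transcription factors, had the largest fall in CDK8.1593, from 51.2 to 35.7 CPM in DMSO (-0.52, adjusted p = 8e-09) and from 48.4 to 31.4 CPM in SnxB (-0.62, adjusted p = 7.43e-10). In CDK8.1830 the largest fall was that of Med23, another tail subunit, with -0.37 in DMSO (adjusted p = 1.44e-05) and -0.34 in SnxB (adjusted p = 3.69e-05).

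Med31 of the middle module fell in CDK8.1593 (-0.37, adjusted p = 0.0088 in DMSO, and -0.39, adjusted p = 0.00685 in SnxB). Med16 rose there in DMSO (0.29, adjusted p = 8.25e-05), and Med19 in SnxB (0.40, adjusted p = 2.35e-05). In CDK8.1830, Med21 of the middle module rose in DMSO (0.41, adjusted p = 0.000667) and in SnxB (0.49, adjusted p = 0.000102), whereas Med22 fell in DMSO (-0.14, adjusted p = 0.00779) and Med24 in SnxB (-0.13, adjusted p = 0.00196). No core subunit changed more than 2-fold.

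The other kinases and cyclins of RNA polymerase II transcription were represented by 12 genes. In DMSO, 2 rose and 0 fell in CDK8.1593, or 16.7% and 0%, beside 30.1% of all genes higher and 29.5% lower. In CDK8.1830, 3 rose and 1 fell, or 25% and 8.33%, beside 29% and 28.1%. In SnxB, 4 rose and 2 fell in CDK8.1593, or 33.3% and 16.7%, beside 30.5% and 30.1%, and 2 rose and 1 fell in CDK8.1830, or 16.7% and 8.33%, beside 28.1% and 28.6%. The median log2 fold change was between 0.05 and 0.07, beside 0.01 for all genes. The count of 2 became 1 without replicate 3 of the control or without replicate 1 or 3 of CDK8.1593, and the count of 3 for CDK8.1830 in SnxB became 5 without its replicate 1.

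Ccnk, the cyclin of CDK12 and CDK13, had the largest rise in each knockdown comparison. In DMSO its mean was 51.2 CPM in the control, 100.3 CPM in CDK8.1593 (log2 fold change 0.97, SE 0.0476, adjusted p = 5.69e-13) and 86.8 CPM in CDK8.1830 (0.76, SE 0.0478, adjusted p = 3.86e-11). In SnxB it was 51.9, 101.6 and 83.8 CPM (0.97 and 0.69, adjusted p = 5.03e-13 and 1.67e-10). Cdk12, which phosphorylates the tail of RNA polymerase II during elongation, fell in CDK8.1830 in DMSO (-0.23, adjusted p = 0.0145), in CDK8.1830 in SnxB (-0.40, adjusted p = 0.000128) and in CDK8.1593 in SnxB (-0.27, adjusted p = 0.0042), and its paralog Cdk13 fell in CDK8.1593 in SnxB (-0.12, adjusted p = 0.0169).

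Mnat1, the assembly factor of the CDK7 kinase, rose in CDK8.1830 (0.25, adjusted p = 0.00229 in DMSO, and 0.36, adjusted p = 8.61e-05 in SnxB). In CDK8.1593, Cdk11b rose in DMSO (0.12, adjusted p = 0.0238), and Ccnt2, a cyclin of CDK9, in SnxB (0.28, adjusted p = 0.0348).

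SCF-Fbxw7, the ubiquitin ligase known for the turnover of MED13 and MED13L, was represented by Fbxw7, Skp1a, Cul1 and Rbx1. Of these 4 genes, 1 rose in CDK8.1593 in DMSO (25%, beside 30.1% of all genes) and 3 in each of CDK8.1830 in DMSO, CDK8.1593 in SnxB and CDK8.1830 in SnxB (75%, beside 29%, 30.5% and 28.1% of all genes), and 0 fell. The count of 1 became 2 without replicate 3 of the control or replicate 3 of CDK8.1593, and 3 with library totals. The median log2 fold changes were 0.11, 0.20, 0.22 and 0.23. Cul1, the scaffold, rose in CDK8.1593 in DMSO from 347 to 402 CPM (0.21, adjusted p = 7.49e-06). Skp1a, the adaptor, rose in CDK8.1830 in DMSO (0.23, adjusted p = 0.00289) and in both lines in SnxB (0.25 and 0.33, adjusted p = 0.0014 and 0.000116). Rbx1, the RING subunit, did so in the same comparisons (0.22, 0.26 and 0.34, adjusted p = 0.00125, 0.000256 and 1.17e-05).

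SnxB in control cells changed 0 of 26 core Mediator genes, 0 of 12 other kinase and cyclin genes and 0 of 4 ligase genes by edgeR, while 3.41% of all genes were called higher and 2.14% lower. At an unadjusted p under 0.05, for which all genes were not counted, there were 0, 1 and 1 genes, and DESeq2 called 0 in each list. Of the genes called, 61.4% were higher, and 48.1% with library totals in place of TMM scaling.

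Over the 6 group means, 5 genes followed Cdk8 most closely by the root-mean-square difference of log2 CPM, each gene being centred on its own mean, among 11180 tested genes with at least 1 CPM. Tmem158 had a difference of 0.0534, followed by Ackr3, a scavenger receptor for chemokines (0.0902), Rasa4, a Ras GTPase-activating protein (0.0914), Nppb, the gene of brain natriuretic peptide (0.0975), and Fbxo32, an F-box protein of muscle atrophy (0.101). Tmem158 was at 16.4 CPM in the control, 6.61 CPM in CDK8.1593 and 10.8 CPM in CDK8.1830 cells in DMSO, and at 16.9, 6.78 and 11.5 CPM in SnxB. The genes nearest to Med12l by the same measure were 4632427E13Rik (0.136), Dusp8 (0.137) and Tlr6 (0.154), and rest on the few Med12l reads given above. The likeness covers 6 groups that differ in line and medium, and each gene was chosen for it.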

How the data were processed

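The authors trimmed 50-base single-end reads with Trimmomatic, mapped them with STAR (GRCm38, GENCODE M13) and used featureCounts 1.5.1 for strand-specific counting over the union of a gene's exons. They deposited these raw counts per gene for 18 libraries (median 19029320 counts), without normalization. Reads that map to several places or genes are left out by that program's defaults. Gene symbols, mRNA lengths and sequences come from GENCODE M21 of the same build.

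The test was the quasi-likelihood test of edgeR 4.0.16 (R 4.3.3; glmQLFit, glmQLFTest), fitted to all 18 libraries with 1 mean per group after TMM scaling and removal of low counts by filterByExpr (minimum count 10, minimum total 15). P-values were adjusted by Benjamini-Hochberg over 12772 genes, a call is an adjusted p under 0.05, and the study's fold change above 2 was added where stated. Tests are two-sided. Standard errors were derived from the F statistic. Levels are TMM-scaled CPM, also given per kilobase. No test was made of sums or shares. The code was tested on simulated counts. DESeq2 1.42.0 and other settings were run as alternatives, and figures were drawn with matplotlib 3.10.9.

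Groups and replicate numbers come from the labels. The headers of the CDK8.1830 count files carry other replicate numbers (2, 3 and 3) than the labels (1, 2 and 3). Nothing states that replicates are separate cultures, so p-values measure the spread between these libraries, which may be technical. Identical counts were found for 0 pairs of libraries. The members and lists were chosen with earlier results of these data known. Named genes are the 7 members, at most the 2 called genes with the largest rise and the 2 with the largest fall per list and comparison, and the genes most like Cdk8 (5) and like any other member whose group means differ by more than 2-fold (3). The likeness added 0.01 CPM before the logarithm. The check of long mRNAs and the alternatives for the gene lists were added after seeing the data.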

Additional observations from a re-analysis of the deposited data

Results flagged for a closer look

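A difference between the CDK8.1830 and CDK8.1593 lines, tested directly, was found for Cdk8 and Cdk19. For Cdk8 the log2 difference of CDK8.1830 from CDK8.1593 was 0.86 in DMSO and 0.77 in SnxB, higher in 3 of 3 libraries in both. For Cdk19 it was -0.29 in DMSO and -0.20 in SnxB, lower in 3 of 3 libraries in both. Groups of 3 libraries were not searched for outliers.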

How the results depend on the processing

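In comparison with the control, the calls of Cdk8 in both lines, of Cdk19 in CDK8.1593 and, in SnxB, of Cdk19 in CDK8.1830 and Med13 in CDK8.1593 held under every alternative run. No called result changed sign. Among values that were not called, Med12 in CDK8.1593 against the control in DMSO ran from -0.08 (without its replicate 2) to 0.18 (log2) when 1 library was left out. DESeq2, its size factors in edgeR and a filter at 1 CPM changed 0 calls of module genes. The number of module genes called for CDK8.1830 against the control in DMSO was 3, and 6 when only the groups compared were fitted. Without a filter on low counts, the number called was 2 for SnxB in CDK8.1593, 0 for SnxB in CDK8.1830, 5 for CDK8.1593 against the control in SnxB and 3 for the interaction of SnxB with CDK8.1593. The cause was not tested. Leaving out 1 library at a time gave 1 to 3 called module genes for CDK8.1830 against the control in DMSO, 0 to 1 for SnxB in CDK8.1593 and 0 to 1 for SnxB in CDK8.1830.

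With library totals in place of TMM, the mean level moved by more than its SD for Cdk8 in CDK8.1830 in DMSO (39.3 CPM), Cdk19 in the control in DMSO (92.6 CPM) and Ccnc in the control in SnxB (83.1 CPM). With mRNA length in place of exon length, the share of Cdk8 in DMSO was 53.9%, 25.0% and 42.6% in the control, CDK8.1593 and CDK8.1830, and in SnxB 51.9%, 25.4% and 40.1%. That of Med13 was 48.1%, 44.1% and 42.4% in DMSO and 46.7%, 42.6% and 42.7% in SnxB. The alternative's other length causes these shifts.

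Among the other lists, the count for transcriptional kinases and cyclins in CDK8.1593 in DMSO was 4 without a filter, and that for SCF-Fbxw7 was 3 with library totals and 2 with only the groups compared. Leaving out 1 library gave 5 to 9 core Mediator genes for CDK8.1830 in DMSO, 1 to 2 kinases and cyclins for CDK8.1593 in DMSO, 3 to 5 for CDK8.1830 in SnxB, and 1 to 2 SCF-Fbxw7 genes for CDK8.1593 in DMSO.

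Same-numbered libraries of different groups did not deviate together (correlations -0.135 to 0.18, with 2 of 18 libraries closest to their own number), so the numbers were not taken as a pairing. With the replicate number as a block, Cdk8 had a log2 fold change of -1.39 in CDK8.1593 and -0.53 in CDK8.1830 in DMSO, the SCF-Fbxw7 count in CDK8.1593 in DMSO was 2, and 0 calls of module genes changed.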
